A study of Mus musculus with 6 samples.

Results

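The interferon-stimulated genes considered here are Isg15, Ifit1, Ifit2, Ifit3, Oasl2, Rsad2, Stat2, Irf9 and Irf7, which were read by gene symbol from the deposited RNA-seq tables of inguinal white adipose tissue (iWAT). All 9 symbols matched a single row, of 55573 genes listed. Whole-tissue RNA was sequenced from 3 Wt and 3 mutant mice, all male, 3 months old, of the C57BL/6NTac strain, on regular chow and untreated. The mutant mice carried the THRA K283Q/K288R allele, a germline knock-in made through ES cells that changes 2 lysines of thyroid hormone receptor alpha so that less SUMO is attached to it. The allele was homozygous and present in all tissues. The Wt mice were bred in the same facility and carried the unaltered receptor, and the methods describe a single knock-in line. The comparison addressed here is whether the genes that interferon induces differed between the genotypes in resting fat, and where mutant mouse 1 stood among the animals.

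Type I interferons bind the receptor chains IFNAR1 and IFNAR2, whose kinases JAK1 and TYK2 phosphorylate STAT2. STAT2 and IRF9 are parts of the complex ISGF3, which binds the interferon-stimulated response element, a DNA motif built of repeated GAAA blocks, near the start of its target genes. Some targets are antiviral effectors, and others, among them STAT2, IRF9 and IRF7, belong to the signaling chain itself, so that the response amplifies its own machinery. Interferon gamma acts through another receptor and drives antigen presentation genes more than the antiviral set. In adipose tissue both adipocytes and resident immune cells are known to respond to interferons.

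The promoters of these genes show which of them hold the element in a simple form, a pair of GAAA blocks separated by any 2 bases, which reads as a pair of TTTC blocks on the other strand. The 250 bases before the RefSeq start were searched on both strands, and overlapping matches were each counted. A match was found for 5 of the 9 genes, compared with 936 of 27025 genes with a promoter in the RefSeq table (3.46%). Isg15 held 3 overlapping matches, beginning 78, 72 and 66 bases before the start, Ifit1 held 2 (104 and 85 bases), Ifit3 held 2 (156 and 122 bases), Rsad2 held 1 (120 bases) and Stat2 held 1 (222 bases). These letters were not in the windows of Ifit2, Oasl2, Irf9 and Irf7, which says nothing of other forms of the motif or of other positions. The sequences shown are those of 3 effectors with more than 1 match and of Stat2, the only gene of the 9 past the threshold between genotypes (below). They are given 5′ to 3′ on the strand of the gene in GRCm38.p6, with the matches in capitals. They lie at chr4:156200819-156201068 (minus strand, Isg15), chr19:34640639-34640888 (plus strand, Ifit1), chr19:34583279-34583528 (plus strand, Ifit3) and chr10:128270248-128270497 (plus strand, Stat2).
Isg15: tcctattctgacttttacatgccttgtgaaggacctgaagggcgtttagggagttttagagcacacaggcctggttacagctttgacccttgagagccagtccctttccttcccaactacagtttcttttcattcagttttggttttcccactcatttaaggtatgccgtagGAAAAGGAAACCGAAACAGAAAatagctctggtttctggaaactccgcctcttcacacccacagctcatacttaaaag
Ifit1: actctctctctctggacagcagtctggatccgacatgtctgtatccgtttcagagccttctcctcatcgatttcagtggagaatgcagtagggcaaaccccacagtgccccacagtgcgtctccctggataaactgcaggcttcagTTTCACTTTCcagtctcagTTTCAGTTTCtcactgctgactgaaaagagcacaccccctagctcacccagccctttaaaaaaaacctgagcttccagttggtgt
Ifit3: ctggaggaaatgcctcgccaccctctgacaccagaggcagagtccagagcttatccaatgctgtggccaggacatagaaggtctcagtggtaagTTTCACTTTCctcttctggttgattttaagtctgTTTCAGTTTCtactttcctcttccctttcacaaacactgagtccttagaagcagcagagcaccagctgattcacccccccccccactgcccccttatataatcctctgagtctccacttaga
Stat2: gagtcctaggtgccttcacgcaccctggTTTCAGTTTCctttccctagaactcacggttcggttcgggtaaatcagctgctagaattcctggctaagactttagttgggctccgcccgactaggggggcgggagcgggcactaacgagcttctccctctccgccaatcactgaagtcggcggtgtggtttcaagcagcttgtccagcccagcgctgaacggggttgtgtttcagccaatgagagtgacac
The run in Isg15 reads as 4 GAAA blocks in a row, whereas Ifit1 and Ifit3 carry separate matches on the opposite strand and the match of Stat2 stands farther from its start. Among the other genes of the pathway with a promoter in the table, 22 of 51 type I interferon-stimulated genes and 11 of 22 genes that prefer interferon gamma held a match. So did 11 of 20 interferon ligands, 1 of 7 other STAT and IRF factors and 1 of 12 nucleic acid sensors and adaptors. Of the ISG15 conjugation genes and pathway inhibitors 1 of 5 held a match, and of the receptors and kinases 0 of 8.

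Values are read counts scaled by the authors to the size of each library (normalized CPM). Between 19607423 and 24228381 reads were assigned to genes per mouse, and a count of 3 reads equaled 0.126 to 0.157 normalized CPM. Each of the 9 genes stood above that level in every mouse, with 67 to 1891 reads. Adipoq, the adipocyte hormone adiponectin, was present at 1332 to 2219 in all 6 libraries, so each held adipose tissue. This does not check the inguinal label, and mesothelial markers, given below, differed between the genotypes. Thra itself was at 147, 128 and 117 in Wt mice 1 to 3 and at 170, 140 and 137 in the mutant mice, which does not check the labels because the allele changes codons and the tables hold no bases. Mutant mouse 1 stood apart in lymphocyte content. The summed level of 8 B cell markers was 4.09 in this mouse, compared to 602 and 936 in mutant mice 2 and 3 and 483 to 1055 in Wt mice, and that of 8 T cell markers was 6.29, compared to 246 and 316 in the other mutant mice and 148 to 599 in Wt. The lymph node vessel gene Glycam1 was 0.052 in mutant mouse 1 and 12.4 to 61.2 elsewhere. The 9 genes and the gene lists are therefore given with and without mutant mouse 1. In bulk tissue, fewer cells of a type and less RNA per cell cannot be told apart.

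Set against exon length, the 3 transcription factors were the most abundant in Wt fat and the effectors were lower. In normalized CPM per kilobase of exon, the Wt means were 13.3 for Stat2, 11.99 for Irf7, 10.8 for Irf9, 8.77 for Ifit3, 6.27 for Isg15, 5.49 for Ifit2, 5.48 for Oasl2, 4.52 for Ifit1 and 3.29 for Rsad2. Every pair of neighbors in that order overlapped between individual Wt mice. In mutant mice the means per kilobase ran from 10.1 for Stat2 through 9.24 for Irf7, 8.71 for Ifit3 and 8.32 for Irf9 to 5.23 for Ifit2, 5.21 for Isg15, 5.12 for Ifit1, 5.03 for Oasl2 and 3.66 for Rsad2. Neighbors overlapped there too, except between Irf9 and Ifit2 and between Oasl2 and Rsad2. By mean level per kilobase over all 6 mice the genes lay between the 46.1 (Rsad2) and 77.3 (Stat2) percentiles of the 16868 genes that passed the filter on low values.

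Of the 9 genes only Stat2 passed a false discovery rate (FDR) of 0.05 between the genotypes, and it was lower in the mutant mice. That is 1 of 9, where 8.11% of all genes tested passed in either direction and 2.61% were lower in mutant mice, so the count for these genes is near the background. The log2 fold change, mutant minus Wt, was negative for 7 genes and positive for 2, with a median of -0.12 compared to -0.05 over all genes tested. Without mutant mouse 1 the median was -0.20 and 0 of the 9 genes passed by limma, where 6.03% of all genes did in either direction and 1.55% were lower. At an unadjusted p under 0.05, 1 of 9 genes passed with all mice, compared to 24.2% of all genes.

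**Figure D1:**
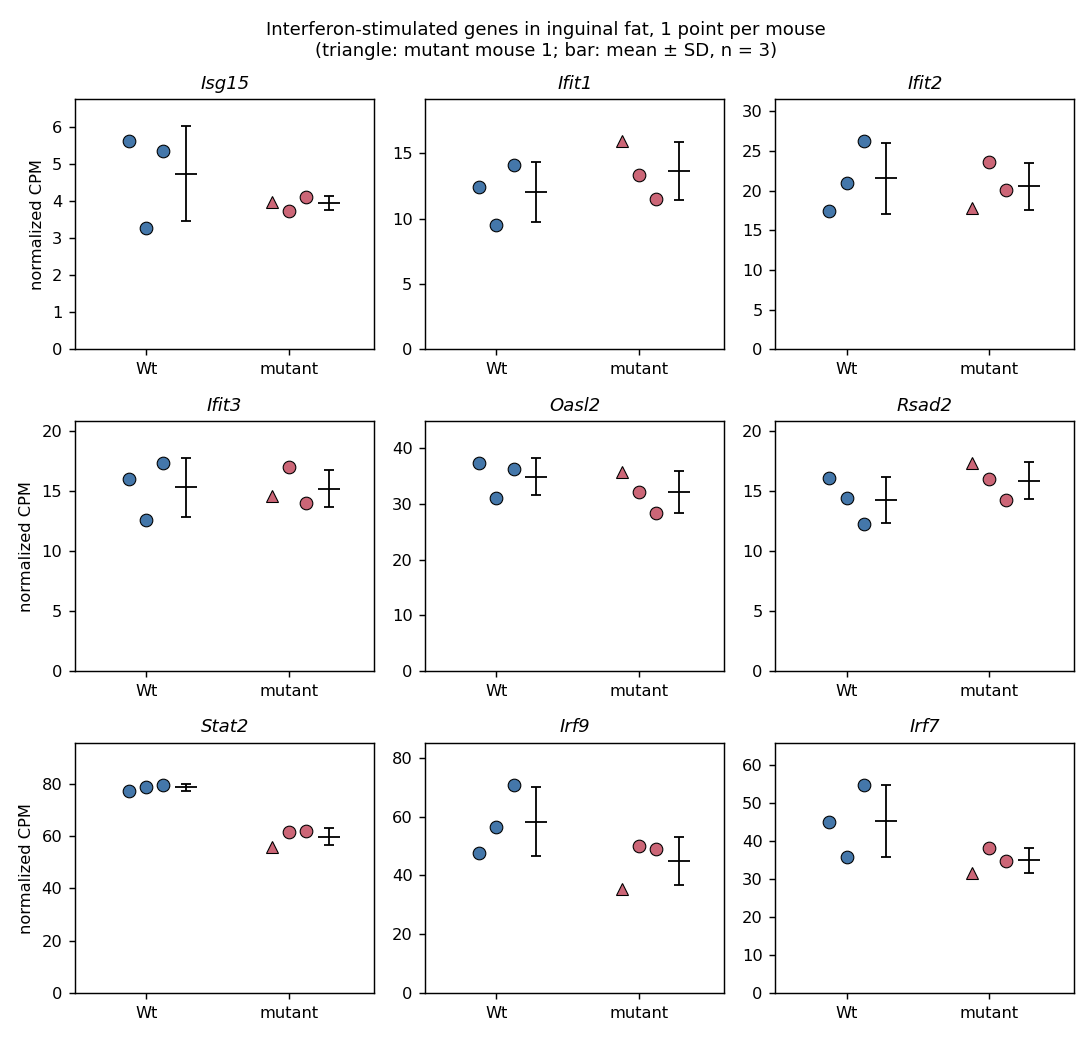
Level of each gene in normalized CPM (vertical axis, from 0) in the 3 Wt and 3 mutant mice, 1 point per mouse with mutant mouse 1 as a triangle and the mean ± SD (n = 3) beside the points. The genotypes separate without overlap for Stat2, where Wt mice lie between 77.2 and 79.6 and mutant mice between 55.9 and 61.9, and overlap for the other 8 genes.

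Stat2 encodes the STAT that is particular to the type I and type III interferon response and is part of ISGF3 with IRF9. The gene (ENSMUSG00000040033, chr10:128270559-128292849, plus strand, GRCm38) was at 77.2, 78.9 and 79.6 in Wt mice 1 to 3. In mutant mice 1 to 3 it was at 55.9, 61.4 and 61.9. All 3 mutant mice lay below all 3 Wt mice, and mutant mouse 1 was the lowest of the 6. The Wt mean was 78.5 ± 1.21 and the mutant mean was 59.7 ± 3.31 (SD, n = 3 each). Stat2 fell by 23.9%, with a log2 fold change of -0.39 (SE 0.074, 95% interval -0.57 to -0.22) and an adjusted p of 0.0263 by limma. The exact two-sided permutation p over the 6 mice was 0.1, the smallest that 3 against 3 allows. A separation of this kind, with every mutant mouse below every Wt mouse, was found for 15.7% of all genes tested. The size of the difference was stable, but the call rested on all 6 mice. The log2 fold change was -0.35 without mutant mouse 1 (adjusted p = 0.0689, limma) and lay between -0.42 and -0.35 whichever mouse was left out, with adjusted p from 0.0618 to 0.111. With scaling by library size alone it was -0.39 with an adjusted p of 0.107.

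Irf9, the DNA-contacting subunit of ISGF3, gave an estimate of similar size with a much wider spread. It was at 47.6, 56.4 and 70.8 in Wt mice and at 35.4, 50.04 and 49.1 in mutant mice 1 to 3. Mutant mouse 1 was the lowest of the 6, and mutant mice 2 and 3 lay between Wt mouse 1 and Wt mouse 2. The log2 fold change was -0.37 (SE 0.19, 95% interval -0.83 to 0.09, adjusted p = 0.293 by limma), and it was -0.21 without mutant mouse 1 (95% interval -0.61 to 0.19). Irf9 (chr14:55603571-55610030, plus strand) shares 123 exonic bases on its own strand with Rnf31, and reads there could be split between them.

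Irf7 is the factor that, once induced and phosphorylated, drives a second wave of interferon alpha genes. It was at 45.2, 35.8 and 54.8 in Wt mice and at 31.6, 38.2 and 34.9 in mutant mice. The lowest value was again that of mutant mouse 1, while mutant mouse 2 lay above Wt mouse 2. The log2 fold change was -0.35 (SE 0.16, 95% interval -0.75 to 0.04, adjusted p = 0.25 by limma), and -0.29 without mutant mouse 1 (95% interval -0.71 to 0.14). The estimates of the 3 factors were thus alike in size, from -0.39 to -0.35. The coefficient of variation among Wt mice was 1.53% for Stat2 but 20.2% for Irf9 and 21.0% for Irf7. For Stat2 counting alone gives 2.57% at the mean reads of all 6 mice, and the spread among its 3 Wt values was below that figure. Wt mice held more Stat2 reads than mutant mice, so the figure for Wt mice alone is somewhat lower. Irf7 (chr7:141262706-141266481, minus strand) overlaps exons of Phrf1 on the other strand by 45 bases.

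The IFIT genes lie together on chromosome 19 and encode proteins that bind foreign RNA, IFIT1 with a preference for RNA whose cap lacks methylation, with IFIT2 and IFIT3 as its partners. Ifit1 (chr19:34640871-34650009) was at 12.4, 9.53 and 14.1 in Wt mice and at 15.9, 13.4 and 11.5 in mutant mice. The highest value was that of mutant mouse 1 and the genotypes overlapped. The estimate on the log2 scale was 0.18 (SE 0.19, 95% interval -0.27 to 0.62) with all mice and 0.06 without mutant mouse 1 (95% interval -0.39 to 0.52). Ifit2 (chr19:34550694-34576419) was at 17.4, 21.0 and 26.3 in Wt mice and at 17.9, 23.6 and 20.1 in mutant mice. Every mutant value fell within the Wt range, with a log2 fold change of -0.06 (95% interval -0.48 to 0.37) that turned to 0.04 without mutant mouse 1. Ifit3 (chr19:34583531-34588731) was at 16.0, 12.6 and 17.3 in Wt mice and at 14.6, 17.0 and 14.0 in mutant mice. Its mutant values also fell within the Wt range, and its log2 fold change of -0.00 (95% interval -0.36 to 0.36) changed sign under several settings. For Ifit3, 51.2% of the 50-base stretches of its transcripts are also found in Ifit3b, so its level depends on how the counting shared reads between the pair. Ifit3b was lower than Ifit3, at 3.66 to 6.12 in Wt mice and 3.55 to 3.93 in mutant mice.

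Isg15 encodes a ubiquitin-like protein that is conjugated to other proteins and also secreted. It was the lowest of the 9 genes in normalized CPM, at 5.61, 3.26 and 5.34 in Wt mice and at 3.98, 3.72 and 4.12 in mutant mice. The mutant mice lay close together and inside the Wt range, with Wt mouse 2 the lowest of all. The log2 fold change was -0.21 (SE 0.21, 95% interval -0.72 to 0.31, adjusted p = 0.572 by limma), and it was also -0.21 without mutant mouse 1. Between 67 and 134 reads stood behind each Isg15 value (chr4:156199424-156200818, minus strand), for which counting alone gives a coefficient of variation of 10.2%.

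Oasl2, a member of the oligoadenylate synthetase family, and Rsad2, which encodes viperin, a radical SAM enzyme that makes a chain-terminating nucleotide, are 2 further antiviral effectors. Oasl2 (chr5:114896936-114912234, plus strand) was at 37.3, 31.1 and 36.3 in Wt mice and at 35.8, 32.2 and 28.3 in mutant mice. Mutant mouse 1 was the highest mutant and stood near Wt mice 1 and 3, and the log2 fold change was -0.12 (95% interval -0.41 to 0.17, adjusted p = 0.555 by limma), and -0.20 without mutant mouse 1 (95% interval -0.50 to 0.09). Rsad2 (chr12:26442746-26456452, minus strand) was at 16.1, 14.4 and 12.3 in Wt mice and at 17.3, 16.0 and 14.3 in mutant mice. Its highest value belonged to mutant mouse 1 and its lowest to Wt mouse 3, and the log2 fold change was 0.15 (95% interval -0.17 to 0.48, adjusted p = 0.508 by limma), and 0.09 without mutant mouse 1 (95% interval -0.28 to 0.46). For each of the 6 effectors, differences within its own 95% interval were not resolved with 3 mice per genotype. The lowest limit was -0.72 (Isg15) and the highest was 0.62 (Ifit1) on the log2 scale.

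**Figure D2:**
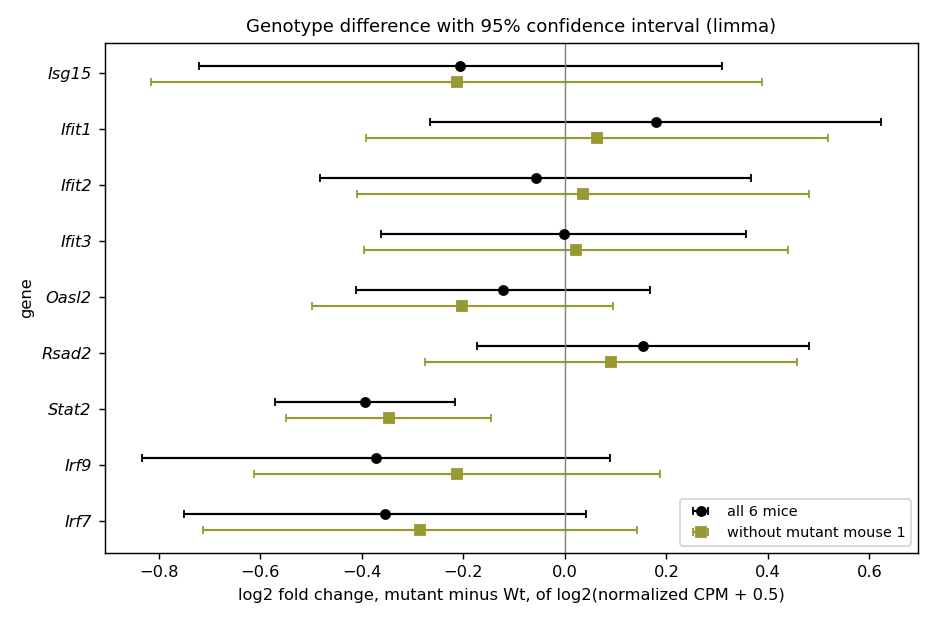
Log2 fold change, mutant minus Wt, of log2(normalized CPM + 0.5) on the horizontal axis for each gene on the vertical axis, with the 95% confidence interval from limma, for all 6 mice (circles) and without mutant mouse 1 (squares). The interval of Stat2 lies below 0 in both fits (-0.57 to -0.22 with all mice), and those of the other 8 genes include 0.

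Mutant mouse 1 was compared with mutant mice 2 and 3 as a description, since a single mouse gives no test. On the log2 scale its difference from the mean of these mice ran from -0.48 (Irf9) to 0.35 (Ifit1) over the 9 genes, with a median of -0.07. It was below both other mutant mice for 4 genes (Ifit2, Stat2, Irf9 and Irf7), above both for 3 (Ifit1, Oasl2 and Rsad2) and between them for Isg15 and Ifit3. The 3 factor genes were lowest of all 6 mice in mutant mouse 1, a place it held for 29.97% of all genes tested. The quartiles of the same difference over all genes were -0.24 and 0.24. By contrast, the 8 B cell markers differed by a median of -6.60 and the 8 T cell markers by -4.68. The summed level of the 9 genes was 228 in mutant mouse 1, 256 and 238 in the other mutant mice and 263 to 317 in Wt mice. The 3 factor genes made up 123 of the 228. The part of lymphocyte content in these levels, and in the lower Irf9 and Irf7 of mutant mouse 1, was not tested.

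**Figure D3:**
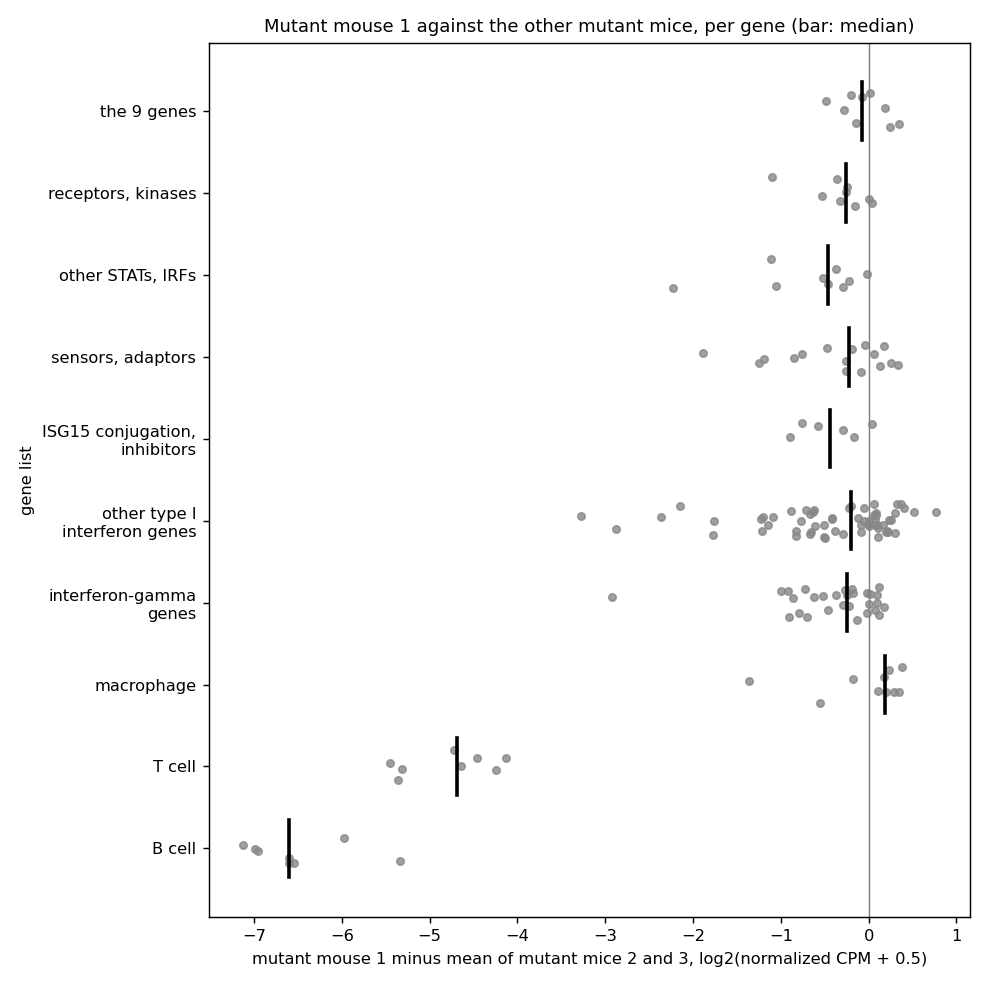
Difference of mutant mouse 1 from the mean of mutant mice 2 and 3 in log2(normalized CPM + 0.5) (horizontal axis), 1 point per gene, for each gene list (vertical axis), with the median as a bar. The 9 genes lie between -0.48 and 0.35, while B cell and T cell markers have medians of -6.60 and -4.68.

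The rest of the pathway was read from lists of 155 further genes, of which 130 passed the filter on low values. Of these, 14 passed the FDR by limma, all lower in mutant mice, compared with 2.61% of all genes tested that were lower. The log2 fold change was negative for 115 and positive for 15, where 56.5% of all genes tested were negative, with a median of -0.32 compared to -0.05 over all genes. Without mutant mouse 1, 11 passed, all lower, with a median of -0.21, and 9 of the genes were shared by both fits. The count was 5, 6 and 5 without Wt mouse 1, 2 or 3, and 4 and 9 without mutant mouse 2 or 3, all of them lower. All mutant mice were below all Wt mice for 43 of the 130 genes, where 15.7% of all genes showed this.

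The interferons themselves were at or near 0. Of 21 ligand genes 17 had no read in any mouse, and the whole list gathered 20 reads over the 6 libraries. Ifng had the most, with at most 8 reads in a mouse, and was listed between 0 and 0.335 normalized CPM. No ligand passed the filter, so none was tested.

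Of the 9 receptor and kinase genes 0 passed the FDR by limma. An unadjusted p under 0.05 was found for 3, where 24.2% of all genes tested had one. The median log2 fold change was -0.25 (-0.15 without mutant mouse 1, with 0 past the FDR). Jak1, the kinase shared by the interferon receptors and the most abundant of the list, was at 273, 376 and 427 in Wt mice and at 239, 337 and 354 in mutant mice (log2 fold change -0.20, SE 0.22, adjusted p = 0.584 by limma, and -0.03 without mutant mouse 1). Ifnar1 gave -0.25 (SE 0.13) and Ifngr1, the ligand-binding chain of the interferon gamma receptor, gave 0.08 (SE 0.10). Tyk2, chosen after its values were seen as the partner kinase of IFNAR1, was at 60.04, 65.4 and 76.3 in Wt mice and at 38.0, 46.0 and 51.8 in mutant mice. It did not overlap between the genotypes but missed the threshold, with a log2 fold change of -0.57 (SE 0.14, adjusted p = 0.0639 by limma), and -0.45 without mutant mouse 1 (adjusted p = 0.106).

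Among the 9 other STAT and IRF genes all estimates were negative, with a median of -0.47 (-0.33 without mutant mouse 1). Of the 9, 1 passed the FDR and was lower, where 2.61% of all genes tested did so. The gene that passed was Irf1, a factor that interferon gamma induces and that acts on antigen presentation genes. Irf1 was at 112, 117 and 141 in Wt mice and at 56.5, 75.6 and 86.8 in mutant mice, without overlap and with mutant mouse 1 the lowest. Its log2 fold change was -0.77 (SE 0.17, adjusted p = 0.0474 by limma), and -0.60 without mutant mouse 1 (adjusted p = 0.0499). Irf1 lay at the threshold, and 0 of the 9 genes passed with any of the other 3 scalings, by edgeR or voom, with no filter, with at least 10 reads in every mouse, with a pseudocount of 0.1, or without Wt mouse 1, 2 or 3 or mutant mouse 2. The count was 1 with a pseudocount of 1 or without mutant mouse 3, 2 by DESeq2 and 7 with mouse number as a block, all lower. Stat3, the most abundant STAT of the list, gave -0.27 (SE 0.073, adjusted p = 0.081), and -0.26 without mutant mouse 1. Irf8, which B cells and myeloid cells use, moved with the lymphocyte markers of mutant mouse 1, at 16.8 in that mouse compared to 72.3 and 89.4 in the other mutant mice, and its estimate of -1.12 with all mice was -0.38 without it.

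Of 16 nucleic acid sensors and adaptors 0 passed the FDR by limma, with a median of -0.21 (-0.20 without mutant mouse 1, with 0 past the FDR). An unadjusted p under 0.05 was found for 3 of the 16, where 24.2% of all genes tested had one. Trim25, a ubiquitin ligase of the RIG-I pathway, gave -0.29 (SE 0.11, adjusted p = 0.166) and Ddx58, which encodes RIG-I, gave -0.21 (SE 0.18, adjusted p = 0.502), both by limma. The enzymes that attach ISG15 to its targets and the inhibitors of the pathway were 6 genes with 6 negative estimates. Their median was -0.31 (-0.27 without mutant mouse 1). By limma 0 of the 6 passed and 3 had an unadjusted p under 0.05, beside the same 24.2% of all genes. Uba7, the activating enzyme for ISG15, was at 83.2, 91.8 and 116 in Wt mice and at 36.8, 67.2 and 70.9 in mutant mice. The groups did not overlap, and the log2 fold change was -0.77 (SE 0.27, adjusted p = 0.142 by limma) with all mice and -0.47 without mutant mouse 1.

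The other type I interferon-stimulated genes, which resemble the 9 genes most in kind, numbered 61 tested, with a median of -0.21 (-0.08 without mutant mouse 1). Estimates were negative for 50 and positive for 11, where 56.5% of all genes tested were negative. An unadjusted p under 0.05 was found for 10, of which 7 were lower, where 24.2% of all genes had one. All mutant mice lay below all Wt mice for 9 genes, where 15.7% of all genes did, and above them for 5. The largest positive estimate, named after its value was seen, was that of Ifi205 (0.49, SE 0.12, adjusted p = 0.0596 by limma). Of the 61 genes 3 passed the FDR and all 3 were lower, a share near the 2.61% of all genes tested that were lower. The count was 1, a lower gene, without Wt mouse 1, 2 or 3 or mutant mouse 1 or 2. It was 2 with scaling by library size only (1 lower) and 6 by the DESeq2 test (3 lower), so some of those calls were higher in mutant mice. Parp10, a mono-ADP-ribosyltransferase, was at 54.9, 47.8 and 53.7 in Wt mice and at 31.3, 27.5 and 31.5 in mutant mice (log2 fold change -0.78, SE 0.096, adjusted p = 0.00606 by limma). It passed without mutant mouse 1 as well (adjusted p = 0.0113), but it shares 205 exonic bases on the same strand with Plec, whose value was 9.09 times its own. Bst2, which encodes tetherin, a membrane protein that holds budding virus at the cell surface, fell by 0.64 on the log2 scale (SE 0.12, adjusted p = 0.0313 by limma). Dtx3l, a ubiquitin ligase that works with PARP9, fell by 0.43 (SE 0.072, adjusted p = 0.0178 by limma) and shares 458 exonic bases with Parp9 on the other strand. Without mutant mouse 1 the adjusted p was 0.0505 for Bst2 and 0.0514 for Dtx3l. The 4 most abundant genes of the list did not pass, among them Ifi27l2a (813 in Wt and 587 in mutant mice, log2 fold change -0.49, SE 0.28) and Ifi27 (0.17, SE 0.20). Ifi27l2a was at 809 in mutant mouse 1 and at 464 and 487 in mutant mice 2 and 3. Without mutant mouse 1 it gave -0.74 (95% interval -1.29 to -0.19, adjusted p = 0.128 by limma), and Ifi27 gave 0.0015.

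The genes that prefer interferon gamma held most of the calls. Of 29 tested, 10 passed the FDR and all 10 were lower in mutant mice, where 2.61% of all genes tested were lower. A total of 28 estimates were negative, where 56.5% of all genes were, and the median was -0.62. Without mutant mouse 1, 9 passed, of which 7 were among the 10, and the median was -0.48. The count rested on several mice, at 4, 5 and 4 without Wt mouse 1, 2 or 3 and at 3 and 6 without mutant mouse 2 or 3, and it was 16 by DESeq2. For 21 of the 29 genes all mutant mice lay below all Wt mice, where 15.7% of all genes did. Cxcl9, a chemokine that attracts T cells, was at 73.9, 57.5 and 62.8 in Wt mice and at 35.1, 34.6 and 35.5 in mutant mice. Mutant mouse 1 stood between the other mutants. Cxcl9 gave -0.87 on the log2 scale (SE 0.11, adjusted p = 0.00577 by limma), and also -0.87 without mutant mouse 1.

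Psmb9, a subunit of the immunoproteasome that cuts peptides for presentation, was at 55.8, 58.2 and 71.8 in Wt mice and at 21.3, 33.9 and 35.9 in mutant mice. Its log2 fold change was -1.04 (SE 0.21, adjusted p = 0.0353 by limma), and -0.81 without mutant mouse 1 (adjusted p = 0.0186). Its exons overlap those of Tap1 on the other strand by 212 bases. Igtp, an immunity-related GTPase that acts on vacuoles of intracellular parasites, fell by 0.99 on the log2 scale (SE 0.17, adjusted p = 0.018 by limma), gave -0.86 without mutant mouse 1 (adjusted p = 0.0262), and shares 162 exonic bases with Irgm2. The class I heavy chains H2-K1 and H2-D1 present peptides to CD8 T cells. H2-K1 was at 1291, 1197 and 1505 in Wt mice and at 678, 793 and 820 in mutant mice (log2 fold change -0.80, SE 0.15, adjusted p = 0.0289 by limma). H2-D1 fell by 0.62 (SE 0.13, adjusted p = 0.038 by limma), and near-identical class I genes make the assignment of reads to either uncertain. Tapbp, which encodes tapasin, fell by 0.46 (SE 0.079, adjusted p = 0.0194 by limma), whereas B2m, the light chain, gave -0.41 (SE 0.17) and did not pass (adjusted p = 0.199). Without mutant mouse 1 the adjusted p was 0.0789 for H2-K1, 0.0921 for H2-D1 and 0.0568 for Tapbp.

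**Figure D4:**
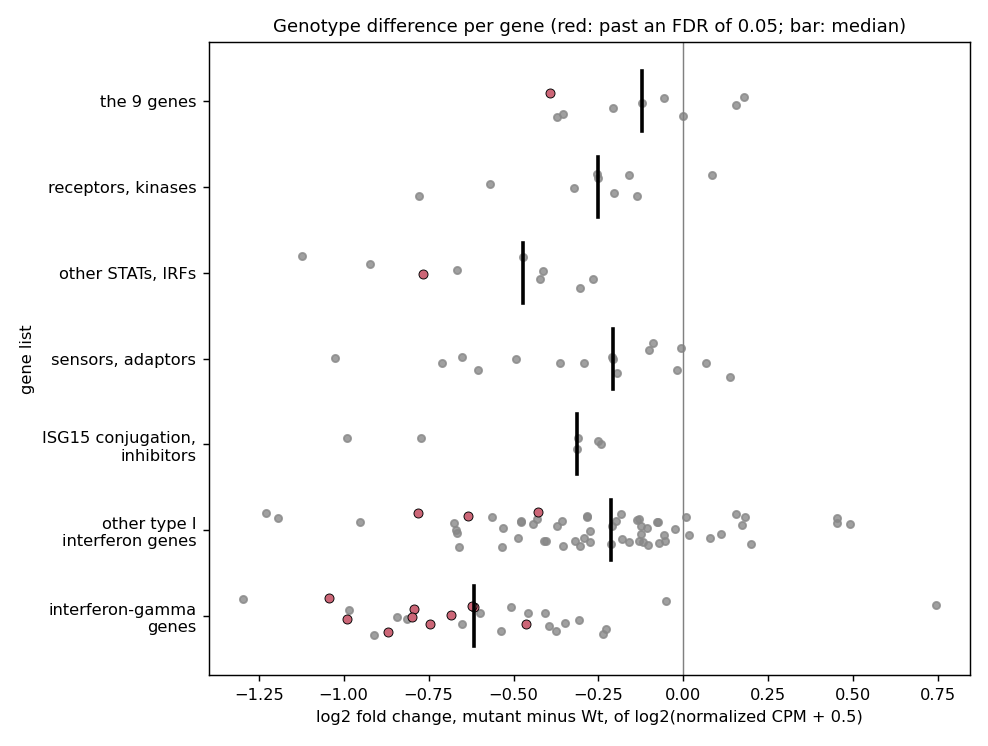
Log2 fold change, mutant minus Wt, of log2(normalized CPM + 0.5) (horizontal axis) for each gene tested, by list (vertical axis), with genes past an FDR of 0.05 in red and the median of each list as a bar. The 9 genes have a median of -0.12 and 1 red point, the other type I genes a median of -0.21 and 3, and the interferon gamma genes a median of -0.62 and 10.

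Markers of the cells that respond to or make interferon were read beside these lists. Over all genes tested 8.11% passed the FDR in either direction, 2.61% passed and were lower, and 24.2% had an unadjusted p under 0.05 by limma. Of 10 macrophage markers 2 passed, C1qa and C1qc, both lower in mutant mice. The summed level of the macrophage list was 1398 to 1761 in Wt and 1284 to 1443 in mutant mice. C1qa was at 149, 150 and 168 in Wt mice and at 120, 110 and 100 in mutant mice (log2 fold change -0.50, SE 0.098, adjusted p = 0.0305 by limma), and gave -0.57 without mutant mouse 1. Both calls were kept without that mouse, but 0 of the 10 markers passed without Wt mouse 1, 2 or 3 or mutant mouse 2 or 3, and 1 passed by edgeR, by voom, with no filter or with at least 10 reads in every mouse. With scaling by library size only 3 passed (2 lower), by DESeq2 4 (3 lower) and with mouse number as a block 5 (4 lower). Lyz2, the most abundant of these markers, gave -0.27 (SE 0.22), and Mrc1 gave 0.27 (SE 0.12), neither past the FDR. Cd163, a scavenger receptor of resident macrophages, was at 112, 105 and 88.8 in Wt mice and at 180, 147 and 131 in mutant mice. All mutant mice lay above all Wt mice, and the log2 fold change of 0.57 (SE 0.15) missed the threshold (adjusted p = 0.0686 by limma). Siglech, a marker of plasmacytoid dendritic cells, which make type I interferon, was at 6.74, 14.2 and 25.3 in Wt mice and at 7.55, 15.4 and 15.3 in mutant mice. Of the 7 markers of these cells tested, 0 passed by limma. An unadjusted p under 0.05 was found for 1, Cox6a2, which was higher in mutant mice (log2 fold change 0.88, SE 0.30). The other 6 estimates were negative, among them Ly6d (-2.03, SE 1.30) and Pacsin1 (-1.42, SE 0.91). The median of this list was -0.73 with all mice and 0.006 without mutant mouse 1, where 8 markers were tested. The B cell and T cell lists had 0 of 8 genes past the FDR each by limma, and 0 at an unadjusted p under 0.05, with medians of -2.30 and -1.88 with all mice and -0.10 and -0.21 without mutant mouse 1. Of the 3 lymph node stroma markers matched, 0 passed by limma, and 0 had an unadjusted p under 0.05. Mesothelial markers were higher in mutant mice for 6 of 8 genes, with or without mutant mouse 1 (with at least 10 reads in every mouse, 1 of the 2 genes left passed), among them Upk3b (0.393 in Wt and 18.6 in mutant mice). None of the 8 adipocyte markers passed by limma, with 2 at an unadjusted p under 0.05. The part of any of these cell contents in the lower Stat2 or in the lower interferon gamma genes was not tested.

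Across the 6 mice the mean of the standardized values of the 9 genes was 0.37, -0.48 and 0.84 in Wt mice 1 to 3 and -0.26, 0.08 and -0.54 in mutant mice 1 to 3, so that mice of both genotypes fell on both sides of 0. Among 2842 genes tested with an SD over the mice of at least 0.5 on the log2 scale, those most like that profile included Igkv2-112, H2-Q2, Gm9974, Klra2, Klra7, Spin2c, Gm37310, Cd207 and Gzmc, with Pearson's r from 0.74 to 0.81 over 6 mice. These points share their libraries, and these genes were low. Igkv2-112, an immunoglobulin segment, ranged from 0 to 2.94 normalized CPM.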

How the data were processed

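RNA-seq of iWAT was analysed from 3 Wt and 3 mutant mice. Per the labels, the authors used Bowtie2 2.1.0, RSEM 1.2.15, edgeR and mm10. Whether counting used strand was not given in the sources used here. The deposited values are a signal, CPM scaled by the authors with a factor per mouse (0.962 to 1.11). Every value was a whole multiple of 1 read (tolerance 0.01 reads), so reads were recovered. Gene positions were from GENCODE M21 on GRCm38.

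Genes were kept by filterByExpr (edgeR 4.0.16), and log2(value + 0.5) was fitted by genotype in limma 3.58.1 with a mean-variance trend. P values were adjusted by Benjamini-Hochberg over 16868 genes, at an FDR of 0.05. Fold changes on this scale understate those of low genes. Each library was labeled as a separate mouse. Alternatives were other scalings, filters, pseudocounts and tests (DESeq2 1.42.0, R 4.3.3), mouse number as a replicate block, and 1 mouse left out at a time. The test was checked on simulated data. The 9 genes and all lists were chosen with earlier results of these data known. Genes named were the 9 genes, Thra, up to 4 of highest mean and up to 4 of largest change past the FDR per list, all past the FDR where 5 or fewer were, and the 10 most correlated. Exceptions are stated, and some results under this rule are not reported here. Of 219 list symbols, 217 matched a single row. Ccl21a and Ccl19 matched several rows and were left out. Counting intervals were not used, since the spread among mice sets the error.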

Additional observations from a re-analysis of the deposited data

How the results depend on the processing

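Counts of calls moved with some settings. Of the 9 genes, 1 passed with all mice, 0 with scaling by library size only, 0 with each mouse left out, and 1 under each of 9 further alternatives apart from the replicate block. Over all genes 1368 passed (440 lower), compared to 1284 with scaling by library size only (265 lower), 2118 by the DESeq2 Wald test, 598 with at least 10 reads in every mouse and 545 to 1043 with each mouse left out. Of the other pathway genes 14 passed, compared to 25 by DESeq2 (22 lower) and 4 to 11 with each mouse left out, the fewest without mutant mouse 2 (4). Without Wt mouse 1, 2 or 3 the counts were 5, 6 and 5, and without mutant mouse 3 it was 9.

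The labels number the mice 1 to 3 in both genotypes without saying that a number marks a shared litter or day. The numbers were not taken as pairs because the labels state no pairing. Deviations from the group means correlated by 0.69, 0.06 and 0.56 for mice 1, 2 and 3, which does not settle whether mice were paired. With mouse number as a replicate block, 2 of the 9 genes passed (Stat2 and Irf9, adjusted p = 0.0371 for Irf9 by limma), as did 53 other pathway genes (49 lower) and 4063 genes in all (2330 lower).

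Near 0, 2 estimates changed sign. Ifit2 gave 0.0915 without Wt mouse 3 and 0.0352 without mutant mouse 1, in a range of -0.20 to 0.0915 with each mouse left out. Ifit3 gave 0.0076 with DESeq2 size factors, 0.0030 by library size only, 0.0264 with TMM, 0.0186 by edgeR, 0.0062 by DESeq2, 0.0237 by voom, 0.0335 without Wt mouse 1, 0.0913 without Wt mouse 3, 0.0222 without mutant mouse 1 and 0.0528 without mutant mouse 3, in a range of -0.13 to 0.0913 with each mouse left out. The cause of these changes was not tested. The other 7 genes kept their direction under all 17 alternatives. With 3 mice per genotype, and 67 reads in the shallowest value, depth limits Isg15 most.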
